A study of Rattus norvegicus with 12 samples.

Results

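The genes described here are activity-induced genes other than the Fos, Egr and Nr4a families, namely Arc, Homer1, Npas4, Btg2, Ier2, Ier5, Atf3, Klf4, Nptx2 and Crem. They were chosen by name, and every probe of these genes was taken on all 12 arrays. Of the 10 genes, 9 had a probe under their name and 8 were among the 20400 genes that could be tested. No probe was named Ier5, and Npas4 was too dim to be tested.

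Activity-induced genes are transcribed within minutes of synaptic input, when calcium entry, cyclic AMP and the ERK kinases activate transcription factors that are already in the nucleus, such as CREB, SRF and MEF2. Some of their products are transcription factors themselves, and others act at the synapse, where they change how glutamate receptors are held, coupled or removed. In the striatum such genes respond to dopamine and to cortical glutamate, and after loss of dopamine their response to L-DOPA is known to be exaggerated.

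Gene expression was measured in the dorsal striatum of 12 male rats on Agilent oligonucleotide arrays read in a single colour, with 3 rats per group and an array for each rat. All rats had received 9 µg of 6-OHDA, a toxin that destroys dopamine neurons, on the left side only, 33 days before they were killed. Rats with no further treatment form the 6-OHDA group, the control. The HFS group had continuous high frequency stimulation of the subthalamic nucleus (STN) at 130 Hz for 5 days (current 60 µA, pulse width 80 µs). In the DOPA group, rats were given 25 mg/kg L-DOPA with 12.5 mg/kg benserazide, an inhibitor of its breakdown outside the brain, in 2 injections per day for 19 days. The DOPA/HFS group received both treatments. Strain and age are not given in the sources used here, and no unlesioned or implanted but unstimulated rats were analysed here. The L-DOPA rats were killed 12 h after the last injection, whereas stimulated rats were killed as soon as the current was turned off, so the delay after treatment differed between the groups. Tissue punches of each rat were pooled before RNA extraction.

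Between 50.5% and 63.2% of the spots were well above background on each array. Levels are given as log2 of the quantile normalized signal, so that a difference of 1 is a doubling, and levels of different probes are not compared. All 11 listed markers of striatal projection neurons were measured, and the 10 with a value on every array (Rgs9 lacked 1) had summed signals of 258000 to 341000, with Penk as the brightest. The sum was higher in every DOPA rat (313000 to 341000) than in every 6-OHDA rat (258000 to 310000), while HFS and DOPA/HFS overlapped with 6-OHDA. It includes Pdyn, the prodynorphin gene, at 14.53, 14.83 and 14.74 in the 6-OHDA rats and 16.09, 16.21 and 15.98 in the DOPA rats. A sum without Pdyn was not made, so the higher sum in DOPA does not describe the list as a whole. Of 8 markers of cortical excitatory neurons, 4 had a probe and 3 were tested. RNA came from whole tissue, so fewer cells of a type and less RNA per cell cannot be told apart. Each group always lay at the same place on the slides, so place and treatment cannot be told apart. Replicate 3 of the 6-OHDA group stood apart for several of the genes described here. It had the highest signal of the 12 arrays for Arc, Btg2, Ier2 and Atf3, which is 4 of the 8 tested members against 4.34% of all genes with a value on every array. Differences of Arc, Btg2, Ier2, Atf3, Crem, Nptx2 and the dimmer Homer1 probe from 6-OHDA are therefore also given without it. Its lead over the next array was only 0.05 for Arc, and DOPA/HFS replicate 1 was the lowest array for Arc, Btg2 and the brighter Homer1 probe.

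The first question was whether stimulation, L-DOPA or both changed the activity-induced genes of the lesioned striatum. Where a treated group did not overlap with the 6-OHDA rats, the member was lower in the treated group. Btg2, an antiproliferative coregulator of transcription and of mRNA decay, was lower than in every 6-OHDA rat in all 3 treatments. Atf3, a stress-induced transcription factor, was lower in the DOPA rats, and Arc and Ier2 were lower in the DOPA/HFS rats. No member was higher than every 6-OHDA rat in any treatment. In a limma fit across all genes, none of the 8 members was called at an adjusted p under 0.1 with a fold over 1.2 or under 0.8.

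That threshold passed few genes of any kind. In HFS against 6-OHDA it called 0% of the 20400 genes, in DOPA against 6-OHDA 0.0049%, which is 1 gene, and in DOPA/HFS against 6-OHDA 0%. The gene called was Igsf5, which was named after its values were seen. At an unadjusted p under 0.05 the HFS comparison held 1 of the 8 members, Btg2, against 2.34% of all genes. The DOPA comparison held 3 members, Btg2, Atf3 and Ier2, against 2.58% of all genes. The DOPA/HFS comparison held 2 members, Btg2 and Ier2, against 2.75%. All of these differences, on the brightest probe of each member, were below 0. On its dimmer probe, U92079, Homer1 was higher in HFS at an unadjusted p under 0.05.

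Counted by groups that did not overlap, 1 member was lower in HFS than in 6-OHDA (Btg2), against 2.34% of all genes with complete values. In DOPA 2 members were lower (Btg2 and Atf3), against 3.11%. In DOPA/HFS 3 members were lower (Arc, Btg2 and Ier2), against 2.44%. No member was higher without overlap, where the shares of all genes were 2.8%, 3.16% and 1.74% in the same order. Of the 8 tested members, Btg2 alone was lower in all 3 treatments, as were 0.169% of all genes, and the 3 comparisons share the same 6-OHDA rats. Without replicate 3 of the 6-OHDA group, the members at an unadjusted p under 0.05 numbered 0 in HFS, where 9.09% of all genes passed, 2 in DOPA (Btg2 and Atf3, against 4.38%) and 1 in DOPA/HFS (Btg2, against 6.44%). Over all arrays left out in turn, the members at an unadjusted p under 0.05 numbered 0 to 2 for HFS, 2 to 3 for DOPA and 1 to 3 for DOPA/HFS, with 0 for HFS also without HFS replicate 3. Removal of 6-OHDA replicate 3, which could not lower these counts, left the members that did not overlap at 1, 2 and 3. The shares of all genes that were lower without overlap then came to 13%, 10.3% and 10.8%. Members lower without overlap numbered 2 for HFS without HFS replicate 1 (9.11% of all genes), 3 for DOPA without 6-OHDA replicate 1 (7.94%) or DOPA replicate 2 (7.98%) and 4 without DOPA replicate 3 (5.37%), and 5 for DOPA/HFS without DOPA/HFS replicate 2 (8%). The median log2 difference of the 8 members was -0.02 for HFS, -0.30 for DOPA and -0.28 for the combined treatment, beside medians over all genes of 0.0086, -0.01 and -0.01. Leaving out 6-OHDA replicate 3 brought the members' medians to 0.01, -0.14 and -0.20 in that order, beside 0.02, -0.01 and -0.0063 over all genes. Other single arrays moved these medians as well. The HFS median was -0.205 without HFS replicate 1. The DOPA/HFS median was -0.46 without DOPA/HFS replicate 2 and -0.10 without DOPA/HFS replicate 3, beside -0.02 and 0.0038 over all genes.

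**Figure D1:**
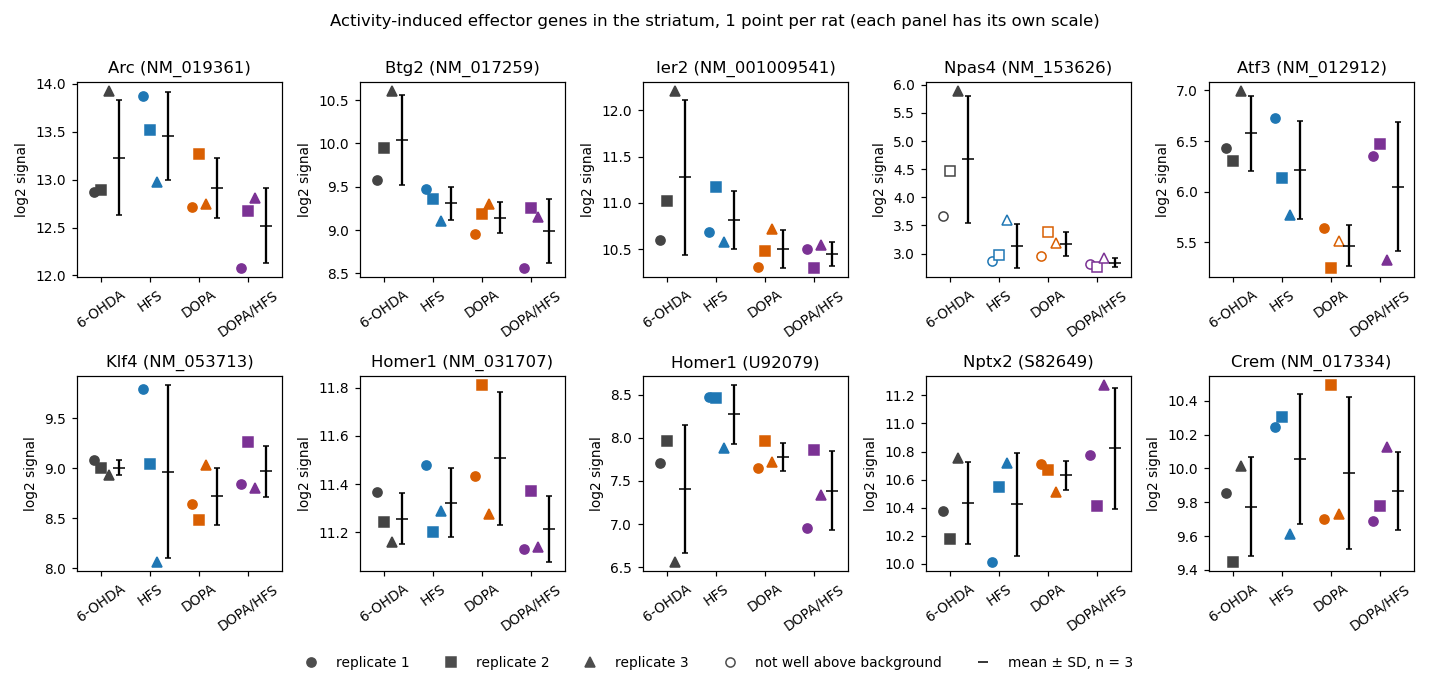
Log2 signal of 9 activity-induced genes (vertical axes, a scale of their own in each panel, since levels of different probes are not comparable) in the 4 groups of 3 rats, with 1 symbol per rat, open symbols for signals not well above background, and a bar for the mean ± SD. The 3 triangles at the top left of the panels of Arc, Btg2 and Ier2 are 6-OHDA replicate 3, at 13.93, 10.60 and 12.21.

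Among the members that act in the nucleus, Btg2 showed the clearest ordering of the groups. Its log2 signal was 9.58, 9.95 and 10.60 in the 6-OHDA rats and 9.48, 9.35 and 9.10 in the HFS rats. It was 8.95, 9.18 and 9.30 in the DOPA rats and 8.56, 9.25 and 9.15 in the DOPA/HFS rats. Every treated rat was thus below every 6-OHDA rat, whereas the HFS, DOPA and DOPA/HFS rats overlapped with one another. The gap between the lowest 6-OHDA rat and the highest HFS rat was small beside the spread within the 6-OHDA group. The means were 10.04 ± 0.52 (SD, n = 3) in 6-OHDA, 9.31 ± 0.19 with HFS, 9.15 ± 0.18 with DOPA and 8.99 ± 0.37 with DOPA/HFS.

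The Btg2 difference from 6-OHDA was -0.73 in HFS (SE 0.26, limma adjusted p = 0.998), a fold of 0.601. It was -0.90 in DOPA (limma adjusted p = 1, fold 0.536) and -1.06 in DOPA/HFS (limma adjusted p = 1, fold 0.481). In each comparison the exact two-sided permutation p was 0.1, the smallest that 3 against 3 rats allow. Each slide carried 1 array of each group, and within slides 1, 2 and 3 the difference was -0.10, -0.60 and -1.50 for HFS. The same within-slide differences were -0.63, -0.77 and -1.31 for DOPA and -1.01, -0.70 and -1.45 for DOPA/HFS, all of them below 0. With slide as a block the 3 differences were the same (SE 0.24), with adjusted p values from limma of 0.98, 1 and 0.725. Without 6-OHDA replicate 3 the differences were -0.45, -0.62 and -0.78 in the same order of treatments.

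Ier2, a nuclear protein encoded by an immediate early gene, gave 10.59, 11.03 and 12.21 in the 6-OHDA rats. Its signal was 10.69, 11.18 and 10.58 in the HFS rats, 10.31, 10.48 and 10.71 in the DOPA rats and 10.50, 10.30 and 10.54 in the DOPA/HFS rats. One 6-OHDA rat, replicate 3, was far above the rest, and another, replicate 1, lay within the range of HFS and DOPA and just above that of DOPA/HFS. The gap from the highest array to the next was 1.03. The difference from 6-OHDA was -0.46 with HFS, -0.77 with DOPA and -0.83 with DOPA/HFS, each with an SE of 0.34, and the adjusted p from limma was 0.998, 1 and 1. Exact permutation p values for the same comparisons were 0.6, 0.2 and 0.1. Without 6-OHDA replicate 3 the Ier2 difference was 0.0049 with HFS, -0.31 with DOPA and -0.36 with DOPA/HFS. Within slides the DOPA difference was -0.28, -0.54 and -1.49 and the DOPA/HFS difference -0.10, -0.73 and -1.66, the last value of each being that of the slide with 6-OHDA replicate 3.

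Npas4, a neuronal transcription factor that is induced by depolarisation and calcium, was well above background on 1 of 12 arrays, again 6-OHDA replicate 3. Its log2 signal was 3.66, 4.47 and 5.89 in the 6-OHDA rats. The range was 2.86 to 3.59 in HFS, 2.96 to 3.38 in DOPA and 2.76 to 2.92 in DOPA/HFS, none of it well above background. With 1 measured array, no fold is given for Npas4.

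Atf3 is a transcription factor of the ATF/CREB family that is induced by stress and by nerve injury. Its signal was 6.43, 6.30 and 6.99 in the 6-OHDA rats and 6.73, 6.14 and 5.77 in the HFS rats. In the DOPA rats it was 5.64, 5.25 and 5.51, with replicate 3 not well above background, and in the DOPA/HFS rats 6.36, 6.47 and 5.32. The DOPA rats were all below the 6-OHDA rats, and the DOPA/HFS rats were split, with replicates 1 and 2 near 6-OHDA and replicate 3 near DOPA. With replicate 3 of DOPA raised to the lowest signal counted as above background, 6-OHDA was at least 2.06-fold higher with the scaling used here. With the value of that array as it stands, the DOPA difference was -1.11 (SE 0.33, limma adjusted p = 1, exact permutation p = 0.1), but it was -0.50 with normexp background and -0.54 in the deposited log2 table, so its size is not settled. Within slides the difference was -0.79, -1.05 and, with the array not well above background, -1.48, and without 6-OHDA replicate 3 it was -0.90. The Atf3 difference was -0.36 in HFS and -0.52 in DOPA/HFS, or -0.15 and -0.31 without that rat, and both groups overlapped with 6-OHDA. The effect of stimulation on Atf3 with and without L-DOPA differed by 0.95 (SE 0.47, interaction in limma, adjusted p = 1), and by 0.74 without 6-OHDA replicate 3.

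Klf4 is a zinc finger transcription factor known from growth arrest and stem cells. Its signal ranged from 8.93 to 9.09 in 6-OHDA, 8.06 to 9.79 in HFS, 8.48 to 9.03 in DOPA and 8.81 to 9.27 in DOPA/HFS. The HFS group held both the highest and the lowest of the 12 rats, replicates 1 and 3, and all groups overlapped. The DOPA difference was -0.29 (95% interval -1.06 to 0.48), and the differences of HFS and DOPA/HFS were -0.04 for each. The sign of the HFS value turned with the background correction and in the deposited log2 table, and the signs of both turned with the rat left out.

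Crem encodes activators and inducible repressors of cyclic AMP-responsive transcription from the same gene, and 2 probes read it. On the brighter probe, NM_017334, the signal ranged from 9.45 to 10.01 in 6-OHDA, 9.61 to 10.30 in HFS, 9.70 to 10.49 in DOPA and 9.69 to 10.13 in DOPA/HFS. The differences from 6-OHDA were 0.28, 0.20 and 0.09, with 95% intervals of -0.31 to 0.87, -0.39 to 0.79 and -0.49 to 0.68. Leaving out 6-OHDA replicate 3 gave 0.40, 0.32 and 0.21. The probe of NM_013086 gave 0.34, 0.34 and 0.19. No group separated from 6-OHDA on either probe. On the brighter probe the DOPA/HFS value was -0.06 in the deposited log2 table and also with outlier spots kept.

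The members that act at the synapse did not move as a group. Arc binds the endocytic machinery and takes part in removing AMPA receptors from the membrane, Homer1 links metabotropic glutamate receptors to their scaffold, and Nptx2 is a secreted pentraxin that clusters AMPA receptors. Arc was lower in the DOPA/HFS rats than in every 6-OHDA rat, while Homer1 and Nptx2 overlapped between 6-OHDA and each treatment.

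The Arc signal was 12.87, 12.89 and 13.93 in the 6-OHDA rats and 13.88, 13.52 and 12.97 in the HFS rats. It was 12.71, 13.27 and 12.75 in the DOPA rats and 12.08, 12.67 and 12.81 in the DOPA/HFS rats. The DOPA/HFS rats lay below all 6-OHDA and all HFS rats, although the highest of them was only just below 6-OHDA replicates 1 and 2, and DOPA overlapped with every other group. In order, the means were 13.46 ± 0.46 in HFS, 13.23 ± 0.60 in 6-OHDA, 12.91 ± 0.31 in DOPA and 12.52 ± 0.39 in DOPA/HFS, and no group was separate from its neighbour in that order.

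The Arc difference from 6-OHDA was 0.23 with HFS, -0.32 with DOPA and -0.71 with DOPA/HFS, each with an SE of 0.33 (limma adjusted p = 0.998, 1 and 1). Exact permutation p values were 0.6, 0.5 and 0.1. Without 6-OHDA replicate 3 these differences were 0.57, 0.03 and -0.36. With each array left out in turn, the HFS difference ranged from 0.01 to 0.57. Within slides the HFS difference was 1.01, 0.62 and -0.95, and thus positive on the slides without that rat and negative on the slide with it. The DOPA/HFS difference within slides was -0.79, -0.23 and -1.11.

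Homer1 was read by a bright probe on record NM_031707 and by a dimmer one on U92079, and which transcript forms each detects was not determined here. The gene gives long scaffold proteins and a short activity-induced form that uncouples them. On the bright probe the signal ranged from 11.16 to 11.37 in 6-OHDA, 11.20 to 11.48 in HFS, 11.28 to 11.81 in DOPA and 11.13 to 11.37 in DOPA/HFS. Relative to 6-OHDA it differed by 0.07 under HFS, 0.25 under DOPA and -0.04 under DOPA/HFS, with 95% intervals of -0.30 to 0.43, -0.11 to 0.61 and -0.40 to 0.32. With each array left out in turn, the DOPA difference ranged from 0.10 to 0.36.

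On the U92079 probe Homer1 gave 7.71, 7.96 and 6.56 in the 6-OHDA rats and 8.47, 8.46 and 7.88 in the HFS rats. It gave 7.65, 7.96 and 7.72 in the DOPA rats and 6.96, 7.86 and 7.34 in the DOPA/HFS rats. Replicate 3 of the 6-OHDA group, the highest rat for Arc, Btg2 and Ier2, was the lowest for this probe. The HFS rats lay above all DOPA/HFS rats, though replicate 3 of HFS by very little, and that rat overlapped with 6-OHDA and DOPA. In a fit of all probes, added after the data had been seen, the difference from 6-OHDA was 0.86 in HFS (SE 0.35, limma adjusted p = 0.999, exact permutation p = 0.2). In DOPA it was 0.37 and in DOPA/HFS -0.02, and DOPA/HFS differed from HFS by -0.88 (exact permutation p = 0.1). Without 6-OHDA replicate 3 the 3 differences from 6-OHDA were 0.44, -0.06 and -0.45, so that the sign for DOPA turned.

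Nptx2 had its highest mean in DOPA/HFS. On the probe of S82649 the signal ranged from 10.18 to 10.75 in 6-OHDA, 10.01 to 10.72 in HFS, 10.52 to 10.71 in DOPA and 10.41 to 11.27 in DOPA/HFS. The difference from 6-OHDA was 0.39 in DOPA/HFS (95% interval -0.16 to 0.94, exact permutation p = 0.2) and 0.43 on the probe of NM_001034199. It was 0.20 in DOPA and -0.01 in HFS, where the second probe gave 0.08. On the first probe, DOPA/HFS replicate 3 was the highest of the 12 rats by 0.49. The difference of DOPA/HFS on the first probe was 0.16 without that rat and 0.59 without DOPA/HFS replicate 2. With 6-OHDA replicate 3 left out, the Nptx2 differences were 0.15, 0.36 and 0.55 for HFS, DOPA and DOPA/HFS.

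Choroid plexus genes differed between the same arrays. Of 9 listed markers 7 were tested. All 7 were higher in HFS than in 6-OHDA at an unadjusted p under 0.05, against 2.34% of all genes, with a median log2 difference of 3.48. Clic6 and Kcnj13 were well above background in every HFS rat but in no 6-OHDA rat, so this median is not an exact size. Without the HFS arrays these genes would not have passed the filter, so their place in the count was in part set by it. Over the 6 with a value on every array, all but Folr1, the summed signal was 262, 393 and 344 in the 6-OHDA rats and 89100, 4300 and 44700 in the HFS rats. It was 229, 1490 and 16500 in the DOPA rats and 600, 919 and 275 in the DOPA/HFS rats. Whether the choroid plexus RNA had a part in the HFS values of any member was not tested.

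A further question was what L-DOPA and stimulation each did across the design, with 6 rats on either side. With L-DOPA, 4 of the 8 members were lower at an unadjusted p under 0.05, namely Btg2, Atf3, Arc and Ier2, against 2.74% of all genes. None was called, while 0.0049% of all genes were, again Igsf5. The L-DOPA difference was -0.61 for Btg2 (SE 0.19, exact permutation p = 0.0152) and -0.63 for Arc (SE 0.24, exact permutation p = 0.0411). It was -0.57 for Ier2 (exact permutation p = 0.0152) and -0.63 for Atf3 (exact permutation p = 0.0519), and the limma adjusted p was 1 for each. For each of these 4 genes the rats with and without L-DOPA overlapped. Without 6-OHDA replicate 3 the 4 differences were -0.47, -0.45, -0.34 and -0.53, and Btg2, Arc and Ier2 were still under 0.05 before adjustment, against 2.84% of all genes. The count was 2 without HFS replicate 1 (Btg2 and Ier2, against 3.06%) and 2 without DOPA/HFS replicate 1 (Btg2 and Atf3, against 4.27%).

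Stimulation gave 1 member at an unadjusted p under 0.05, Btg2 at -0.45 (SE 0.19, limma adjusted p = 0.911, exact permutation p = 0.147), against 4.36% of all genes. Without 6-OHDA replicate 3 no member remained, against 9.59% of all genes, and Btg2 was at -0.31. The count was also 0 without HFS replicate 2 or 3, DOPA replicate 2 or 3, or DOPA/HFS replicate 1. The share of all genes called was 0% for stimulation, as it was for the interaction of the treatments. Adding L-DOPA to stimulation, DOPA/HFS against HFS, gave an Arc difference of -0.94 (SE 0.33, limma adjusted p = 1) and no overlap, with an exact permutation p of 0.1. Within slides that Arc difference was -1.80, -0.85 and -0.16, and it was -0.73 without HFS replicate 1 and -0.72 without DOPA/HFS replicate 1. Ier2 was also lower in DOPA/HFS than in every HFS rat, by a log2 difference of -0.37 (SE 0.34, exact permutation p = 0.1). Its within-slide differences were -0.19, -0.88 and -0.04. Arc and Ier2, 2 of the 8 members, stand against 4.13% of all genes that were lower without overlap. Adding stimulation to L-DOPA, DOPA/HFS against DOPA, gave -0.16 for Btg2, -0.39 for Arc and 0.58 for Atf3, all with overlapping groups. In both of these comparisons the share of all genes called by limma was 0%, with 496 and 772 genes at an unadjusted p under 0.05. For the interaction that number was 403, with no member among them on its brightest probe. The Arc interaction was -0.62 (SE 0.47) and, without 6-OHDA replicate 3, -0.96 (SE 0.41), which was then under 0.05 before adjustment (limma adjusted p = 0.992). On the U92079 probe the Homer1 interaction was -1.25 (SE 0.49) and under 0.05 before adjustment, and it was -0.83 without that rat.

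The members were next compared with each other and with Fos, Egr1 and Junb, the transcription factors of the same early response, across the 12 rats. Btg2 varied with Arc and with Ier2, and all 3 of these members varied with Fos. Of 52 relations, 8 had a Benjamini-Hochberg adjusted permutation p under 0.1 for Pearson's r. Between Btg2 and Ier2, r was 0.842 (permutation p = 0.00249, adjusted 0.0432) and Spearman's rho 0.748 (permutation p = 0.00716, adjusted 0.106). Without the 2 rats farthest from the median of Btg2, 6-OHDA replicate 3 and DOPA/HFS replicate 1, r was 0.627 (permutation p = 0.0551), so the relation rested in part on them. It was 0.728 with group means removed (exact permutation p = 0.0787) and 0.827 with slide means removed (exact permutation p = 0.019).

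Between Arc and Fos, r was 0.814 (permutation p = 0.001, adjusted 0.0432) and rho 0.825 (permutation p = 0.0014, adjusted 0.0728). This was 0.55 without 6-OHDA replicate 3 and HFS replicate 1 (permutation p = 0.1), 0.673 with group means removed (exact permutation p = 0.113) and 0.839 with slide means removed (exact permutation p = 0.00275). Between Arc and Btg2, r was 0.681 (permutation p = 0.0151, adjusted 0.098) and rho 0.622 (permutation p = 0.0341, adjusted 0.136). The r of Arc and Btg2 was 0.502 without the same 2 rats (permutation p = 0.13), 0.851 with group means removed (exact permutation p = 0.0147) and 0.666 with slide means removed (exact permutation p = 0.0417). Between Arc and Ier2, r was 0.647 (permutation p = 0.0215, adjusted 0.107), which is outside the 8. None of the 52 relations had an adjusted p under 0.1 once the 2 farthest rats were left out, nor with group means removed. Leaving out those rats did not lower r in 2 of the 8. It was 0.753 and then 0.772 between Arc and Egr1 (permutation p = 0.0103, adjusted 0.364), and 0.711 and then 0.738 between Atf3 and Junb (permutation p = 0.014, adjusted 0.364). A slide or a group alone held too few rats for an r of its own.

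**Figure D2:**
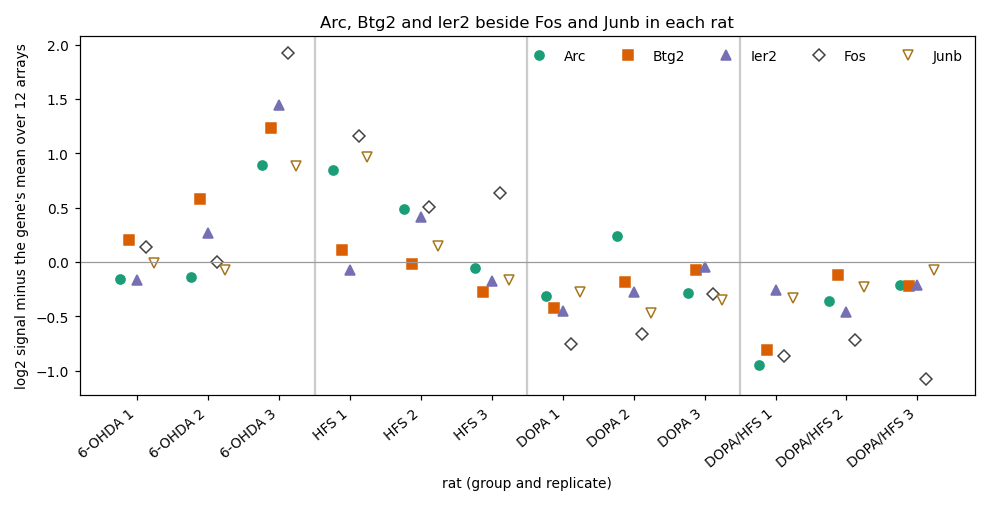
Log2 signal of Arc, Btg2, Ier2, Fos and Junb in each of the 12 rats (horizontal axis, by group and replicate), with the mean of each gene over the 12 arrays subtracted (vertical axis) and 1 symbol per gene. All 5 genes were above their mean in 6-OHDA replicate 3, and Fos, at 9.85 there, was at 7.05, 7.20 and 6.85 in the DOPA/HFS rats.

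Homer1, Klf4, Nptx2 and Crem took part in none of the 8 relations. Genes outside the set with the most similar profile are given as a description, by Pearson's r over 12 arrays among 18342 genes. For Arc the nearest was Dusp1, a phosphatase that ends MAP kinase signalling and is itself an early response gene (r = 0.937). For Btg2 the nearest were Npr1, a natriuretic peptide receptor (r = 0.896), and Dusp1 (r = 0.821). For Homer1 the nearest was Ednra, an endothelin receptor (r = 0.92).

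Dusp1 had a log2 signal of 10.38, 10.26 and 11.65 in the 6-OHDA rats and 11.07, 10.58 and 10.02 in the HFS rats. It was 9.84, 10.42 and 9.92 in the DOPA rats and 9.49, 9.83 and 9.83 in the DOPA/HFS rats. Dusp1 was picked here for its likeness to Arc, so these values describe it and are no test of a shared response.

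Of 19 early transcription factors 17 were tested, limma called none in any treatment, and 2, 1 and 1 were at an unadjusted p under 0.05. Their median log2 difference was 0.11 for HFS, -0.14 for DOPA and -0.32 for DOPA/HFS, and 0.36, -0.03 and -0.18 without 6-OHDA replicate 3. With L-DOPA as a main effect, 6 of the 17 were at an unadjusted p under 0.05, all lower, against 2.74% of all genes, and the median was -0.33, beside the 4 of 8 members that were lower. With 6-OHDA replicate 3 left out, that count was 4, all lower, against 2.84% of all genes, and the median -0.27. In the comparisons with 6-OHDA, 0, 3 and 4 of the 17 were lower without overlap, for HFS, DOPA and DOPA/HFS, and 1, 1 and 0 were higher. Fos in DOPA/HFS was at -1.58 (SE 0.42, exact permutation p = 0.1), and at -0.96 without that rat, and Egr1 was at -0.49 (exact permutation p = 0.1). The higher gene was the nuclear receptor Nr4a3 in both cases, at 1.55 in HFS (SE 0.26, exact permutation p = 0.1) and 0.53 in DOPA (exact permutation p = 0.1). Of 25 other effectors 24 were tested, and limma called none, with 3 at an unadjusted p under 0.05 in each treatment and medians of 0.07, 0.12 and -0.02. Leaving out that rat gave counts of 3, 5 and 1, against 9.09%, 4.38% and 6.44% of all genes, and medians of 0.10, 0.08 and -0.03. In the same order of treatments, 4, 4 and 1 were higher without overlap and 1, 0 and 1 lower. For all 4 gene lists, the shares of all genes to set beside such counts are 2.8%, 3.16% and 1.74% higher and 2.34%, 3.11% and 2.44% lower. At an unadjusted p under 0.05 the shares were 2.34%, 2.58% and 2.75% with all arrays. Those higher in DOPA included Inhba, a subunit of activin (1.16, exact permutation p = 0.1), and Scg2, a granin of secretory vesicles (0.97, exact permutation p = 0.1).

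Of 30 relatives and partners of the members, including Homer2, Homer3, Btg1, Nptx1 and the Shank scaffolds, all were tested and limma called none, with 1, 0 and 0 at an unadjusted p under 0.05 and medians of 0.04, 0.0013 and -0.02. Leaving out 6-OHDA replicate 3 gave counts of 3, 1 and 1, against the same raised shares of all genes, and medians of 0.07, 0.01 and 0.006. One of them was lower without overlap, Btg1 in DOPA at -0.23 (SE 0.19, exact permutation p = 0.1). Of 22 genes that carry the synaptic signal to the nucleus 19 were tested and limma called none, with 0, 0 and 2 at an unadjusted p under 0.05 and medians of 0.08, 0.02 and -0.10, or 1, 0 and 1 and medians of 0.14, 0.12 and 0.06 without that rat. In that order 1, 1 and 2 were lower without overlap, and none was higher. The 2 in DOPA/HFS were Mef2a, a transcription factor (-0.77), and Ppp3ca, the catalytic subunit of calcineurin (-0.37), both with an exact permutation p of 0.1. A single rat weighed heavily in each. Mef2a was 7.81, 8.58 and 7.42 in the 6-OHDA rats, and Ppp3ca was 15.61, 15.65 and 15.17 in the DOPA/HFS rats.

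The start regions of the members were searched for the cyclic AMP response element, to which CREB, ATF and CREM proteins bind, and for the CArG box of SRF. The windows are 300 bases from RefSeq on GRCr8, most of each before the start of the gene, and 8 of the 10 genes matched, with 10 windows. The full element TGACGTCA, searched on both strands, was in 4 windows of 3 genes, Btg2, Ier2 and Crem, and in 1.83% of 33465 windows of all genes. The shorter TGACG, which the full element contains, was in 6 windows of 4 genes and in 21.2% of all. A CArG box was in none of the 10 windows and in 1.64% of all. The windows of Btg2 and Ier2 are shown because these 2 members varied together across rats. The Btg2 window is chr13:48087641-48087940 on the minus strand and that of Ier2 chr19:40399123-40399422 on the plus strand, both written 5′ to 3′ in the direction of transcription with the element in capitals.
Btg2: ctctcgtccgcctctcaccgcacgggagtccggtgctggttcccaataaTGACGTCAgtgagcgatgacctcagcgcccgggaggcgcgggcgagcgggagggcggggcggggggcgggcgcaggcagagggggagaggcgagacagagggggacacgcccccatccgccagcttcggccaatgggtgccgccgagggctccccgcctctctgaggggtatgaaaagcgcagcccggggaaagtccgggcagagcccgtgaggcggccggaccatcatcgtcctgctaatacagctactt
Ier2: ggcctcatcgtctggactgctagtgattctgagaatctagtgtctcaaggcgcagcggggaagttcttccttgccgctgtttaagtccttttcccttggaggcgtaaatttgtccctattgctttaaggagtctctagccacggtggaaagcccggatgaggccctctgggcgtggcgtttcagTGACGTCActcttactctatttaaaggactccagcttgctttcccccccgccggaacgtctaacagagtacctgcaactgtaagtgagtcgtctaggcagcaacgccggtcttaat
The element began at base 50 of the Btg2 window and at base 185 of the Ier2 window. A match describes the letters only, and no match says no more than that these letters are not in the window.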

How the data were processed

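Signals of 12 arrays, 1 per rat, were used. The intensity values were made by the authors with Agilent Feature Extraction 9.1, which subtracted the background within each array, and were deposited without scaling between arrays. A deposited table of log2 values, quantile normalized between arrays by the authors, served as an alternative. Control spots (1639 of 45018) and outlier spots were left out; the latter numbered 4175 on DOPA/HFS replicate 3 and 2 to 25 on the others, with no spot of a member among them. Spot signals were log2 transformed and quantile normalized, and the spots of a probe were then averaged. The brightest probe stood for a gene, and 20400 genes well above background on at least 0.4 of the arrays were tested.

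Group means were fitted with limma 3.58.1 in R 4.3.3, p values were adjusted by Benjamini-Hochberg over all genes tested, and a call needed an adjusted p under 0.1 together with a fold outside 0.8 to 1.2. Single members were tested by exact two-sided permutation, whose smallest p is 0.1 for 3 against 3 rats (20 divisions) and 0.00216 for 6 against 6 (924 divisions). Relations over the 12 rats used 100000 permutations in Python 3.11.15 with scipy 1.17.1, and exact permutations within groups or slides. The code was tested on simulated data.

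Named are every member on every probe, genes of the lists given in the text, the nearest genes by Pearson's r, and genes of the marker lists. Members and lists were chosen with earlier results of these data known. Alternatives were 75th percentile scaling, normexp background with an offset of 50, the deposited table, no filter, the mean of all probes, outlier spots kept, slide as a block, only the arrays compared, and each array left out. Added after seeing the data were the second probes of Homer1, Crem and Nptx2, the counts and median of the members without each array, these probes and the gene lists without 6-OHDA replicate 3, and marker sums over genes with a value on every array. Only RefSeq promoter windows of the members were matched, and Arc and Atf3 had none.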

Additional observations from a re-analysis of the deposited data

Results flagged for a closer look

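On the U92079 probe of Homer1, the effect of L-DOPA differed in direction with and without stimulation. Without stimulation all 3 DOPA rats (7.65, 7.96 and 7.72) were above the 6-OHDA mean of 7.41, and with stimulation all 3 DOPA/HFS rats (6.96, 7.86 and 7.34) were below the HFS mean of 8.27. The difference between both effects was -1.25 on the log2 scale (SE 0.49, limma interaction, adjusted p = 1). The 6-OHDA mean includes replicate 3 at 6.56, the lowest of the 12 rats, and DOPA overlapped with 6-OHDA. Without that rat the DOPA difference was -0.06 and the interaction -0.83 (SE 0.37, limma adjusted p = 0.993), so both effects of L-DOPA were then below 0. The bright Homer1 probe gave an interaction of -0.36 (SE 0.23).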

How the results depend on the processing

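No member was called by limma in any of the settings run, and the lowest adjusted p of a member in a comparison with 6-OHDA was 0.557, for Btg2 in HFS. Of the member differences from 6-OHDA, 195 kept their direction and 6 turned under the alternatives other than leaving out an array, and 274 kept it and 14 turned with an array left out. The members with an exact permutation p of 0.1 numbered 1, 2 and 3 in HFS, DOPA and DOPA/HFS under every scaling, background and probe alternative for which they were counted. The differences that turned were small. Klf4 in HFS was 0.02 with normexp background and 0.0141 in the deposited table. Crem in DOPA/HFS was -0.0612 in the deposited table and -0.0556 with outlier spots kept. Nptx2 in HFS was 0.0344 with the mean of probes and 0.0777 on its second probe. Atf3 in DOPA kept its direction at -0.50 with normexp background and -0.54 in the deposited table, beside -1.11. The causes were not tested.

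With each array left out, the differences that turned ranged in HFS from -0.45 to 0.41 for Klf4, -0.0139 to 0.13 for Homer1, -0.80 to 0.0049 for Ier2 and -0.15 to 0.20 for Nptx2. In DOPA they ranged from -0.50 to 0.0268 for Arc and -0.059 to 0.34 for Crem. In DOPA/HFS they ranged from -0.12 to 0.0117 for Homer1, -0.0703 to 0.21 for Crem and -0.18 to 0.0458 for Klf4. Btg2 ranged from -0.97 to -0.45 in HFS, -1.13 to -0.62 in DOPA and -1.29 to -0.78 in DOPA/HFS.

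Relations with an adjusted permutation p under 0.1 numbered 8, and 1 with Spearman's rho, 0 without the 2 farthest arrays, 0 with group means removed and 2 with slide means removed. The cause was not tested, although leaving out arrays also lowers the number of rats. Genes called in DOPA numbered 1, but 0 without the filter, 0 with slide as a block and 2 with only the arrays compared. Without the filter 3 genes were called in HFS and 3 in DOPA/HFS against HFS, and normexp gave 2 for L-DOPA as a main effect. The block changed no other call. Leaving out 1 array gave 0 to 13 genes in DOPA, 1 to 28 for L-DOPA as a main effect, up to 2 in HFS, 3 in DOPA/HFS, 4 in DOPA/HFS against HFS and 1 for stimulation, the highest for DOPA and L-DOPA without DOPA/HFS replicate 1. Only the arrays compared could not be used for the main effects and the interaction. Arrays of the same replicate number correlated at a median r of 0.112 (-0.288 to 0.477) over 18 pairs, and those of different number at -0.0693 (-0.447 to 0.543) over 36. The numbers are taken as slides, not as paired rats, but these correlations cannot tell the 2 apart, since either could make arrays of the same number alike.

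With 3 rats per group, the smallest exact p of a pair of groups was 0.1, and leaving out 6-OHDA replicate 3 moved each of the 3 differences from 6-OHDA alike for a given member. The interaction of Atf3 was 0.95, and between 0.72 (without HFS replicate 3) and 1.31 (without DOPA/HFS replicate 3) with an array left out, at 0.74 without 6-OHDA replicate 3. Npas4 and part of the Atf3 signal lay near background.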

Other observations

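Marker lists of 5 other cell types gave these summed signals over the 12 rats, for the genes with a value on every array and with the brightest gene of each list. Cortical excitatory neurons gave 45800 to 85700 (Nrgn), endothelium 6460 to 10300 (Cldn5), microglia 26800 to 36300 (C1qb), astrocytes 52100 to 63800 (Slc1a3) and leptomeninges 1300 to 3500 (Col1a2). Most of the cortical sum was signal of the Nrgn probe, which is no measure of its share of RNA. The other 2 genes tested varied more, Slc17a7 from 4.35 to 7.76, with 6-OHDA replicate 2 and HFS replicate 1 not well above background, and Neurod2 from 7.19 to 9.81 in log2 signal. Left out of the sums for want of a value on DOPA/HFS replicate 3 were Kdr, Slco1a4, Vwf, Cd68 and Lum. In limma no gene of these lists was called, and none was at an unadjusted p under 0.05 in any treatment against 6-OHDA.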
